A study of Mus musculus with 6 samples.

Results

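MiR-221 and miR-222 were measured in the aortas of 3 EC-Dicerflox and 3 EC-DicerWT mice that had been fed a high-fat diet (HFD) for 4 weeks, with TaqMan MicroRNA array cards, which quantify each miRNA by real-time PCR. They are the 2 of 596 mouse miRNA assays whose name is exactly miR-221 or miR-222, and starred names were not taken. EC-Dicerflox mice carried VE-Cadherin-CreERT2, floxed Dicer1 on both alleles and no functional Apoe (VE-Cadherin-CreERT2Dicer1flox/flox/Apoe-/-), and EC-DicerWT littermates carried the same Cre and the Apoe deletion with wild-type Dicer1 (VE-Cadherin-CreERT2Dicer1WT/WT/Apoe-/-). All mice received Tamoxifen (TMX) on 5 days at 2 mg for each 20 g of body weight, which activates Cre in the endothelial cells (ECs), and entered the HFD at 6 to 8 weeks of age. The labels give the mice as male and the paper gives them as female, and no value here uses the sex. Because the VE-cadherin promoter restricts the deletion to ECs while the RNA came from the whole aorta, each value mixes ECs that lost Dicer with smooth muscle cells and leukocytes that kept it, and fewer cells of a type and less RNA per cell cannot be told apart. Dicer1 mRNA is not among the assays, so that the deletion was not checked on these samples here.

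MiR-221 and miR-222 are processed from neighbouring hairpins of 1 primary transcript and are best known in vessels for promoting the growth of smooth muscle cells, in which they lower the cell cycle inhibitor p27Kip1 (Cdkn1b), and for restraining angiogenesis in ECs, in which they lower the receptor c-Kit. A miRNA recognizes its targets mainly through its seed, bases 2 to 8. Dicer cuts the mature miRNA out of the hairpin, so the loss of Dicer stops the supply, while the level falls only as fast as the existing molecules decay. The paper discusses miR-221 as one of the miRNAs that turn over fast in ECs when Dicer is silenced.

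The mature strands are shown because both members carry the same seed, which is in capitals. They were read from RefSeq (GRCm38.p6) by name. The deposited table gives no probe sequences, and an assay named without a star or an arm was taken as the 3p strand.
miR-221-3p: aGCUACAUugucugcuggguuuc
miR-222-3p: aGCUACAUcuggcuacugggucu
miR-1928: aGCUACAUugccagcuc

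The 2 members share their first 8 bases and are identical at 11 of 23 positions from the 5′ end without gaps, so that they differ mainly in the 3′ part. The seed GCUACAU is found in 3 of 1679 mature mouse miRNAs in the RefSeq table (0.179%), and the third is miR-1928, a 17-base sequence that matches miR-221-3p over its first 10 bases. All 3 have an assay on the cards. No assay for a starred strand of either member is in the deposited table.

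The hairpins are shown because they lie side by side, with the 3p strand in capitals. In RefSeq, Mir222 (chrX:19146893-19146971) and Mir221 (chrX:19146294-19146388) are both on the minus strand of GRCm38.p6 with 504 bases between them, so that Mir222 comes first in the direction of transcription. No other gene of the RefSeq table overlaps the stretch from one hairpin to the other.
Mir222: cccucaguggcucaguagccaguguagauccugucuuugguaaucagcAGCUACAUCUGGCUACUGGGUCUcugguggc
Mir221: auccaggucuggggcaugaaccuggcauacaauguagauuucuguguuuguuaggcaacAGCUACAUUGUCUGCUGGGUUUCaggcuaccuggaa

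Both members were detected in every aorta. The cycle threshold (CT) is the PCR cycle at which the signal crosses a threshold, a higher CT means less RNA, 1 cycle is close to a 2-fold difference, and 40 stands for no signal. The CT of miR-221 was 24.83, 24.53 and 25.98 in EC-Dicerflox replicates 1, 2 and 3, and 24.51, 24.89 and 25.52 in EC-DicerWT replicates 1, 2 and 3. The CT of miR-222 was 20.4, 20.0 and 22.2 in EC-Dicerflox and 20.3, 20.2 and 21.4 in EC-DicerWT mice, in the same order. For both members the groups overlapped, and the highest CT of each group was that of replicate 3.

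The mean CT of miR-221 was 25.1 ± 0.764 (SD, n = 3) in EC-Dicerflox and 25.0 ± 0.511 (SD, n = 3) in EC-DicerWT aortas. That of miR-222 was 20.8 ± 1.19 (SD, n = 3) and 20.7 ± 0.668 (SD, n = 3), respectively. In each aorta, between 27 and 40 of the 375 to 415 miRNA assays with a CT under 40 had a lower CT than miR-222, and between 120 and 134 had a lower CT than miR-221. MiR-222 was thus among the early signals of every aorta, before miR-221 in 6 of 6 samples, but assays differ in efficiency, so that a gap in CT between assays is no ratio of molecules. The smooth muscle miRNAs miR-143 and miR-145, which mark the main cell type of the vessel wall, had mean CTs of 17.4 and 14.8 in EC-Dicerflox and 17.4 and 14.9 in EC-DicerWT aortas, and miR-126-3p, which marks ECs, had mean CTs of 18.1 and 18.3.

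The late signals of replicate 3 were not particular to the members. In EC-Dicerflox replicate 3, the CT was later than the mean of replicates 1 and 2 by 1.30 cycles for miR-221, 2.03 cycles for miR-222 and 1.57 cycles for the median of the 350 miRNAs detected (CT under 40) in every aorta. In EC-DicerWT replicate 3, these shifts were 0.823, 1.16 and 0.738 cycles. The control RNAs of the cards shifted by unequal amounts, in EC-Dicerflox from 0.748 cycles for the small nuclear RNA U6 to 2.72 cycles for the small RNA Y1, and in EC-DicerWT from 0.32 to 1.46 cycles. The genotypes were therefore compared relative to control RNAs, or by differences between miRNAs of the same aorta, which need none.

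**Figure D1:**
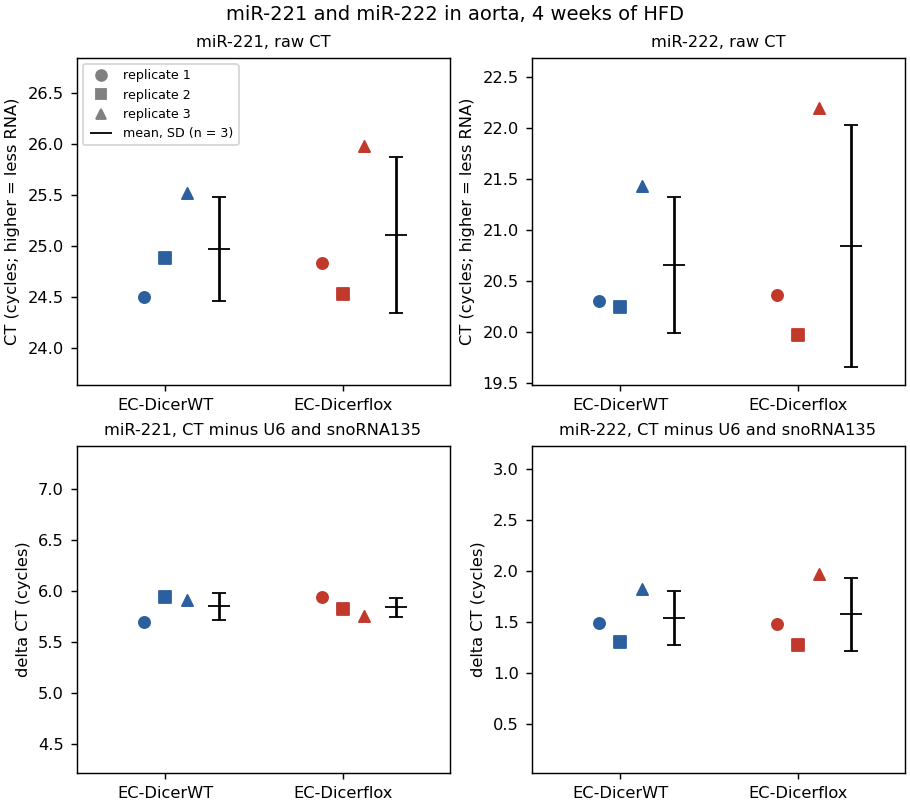
CT (top) and CT relative to the control RNAs U6 and snoRNA135 (bottom) of miR-221 (left) and miR-222 (right), in cycles, for each aorta (marker shape gives the replicate number), with the mean and SD of each group (n = 3). All 4 panels span the same number of cycles, the groups overlap in each, and the late CT of replicate 3 is removed by the control RNAs for miR-221 and only in part for miR-222.

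The question of the comparison was whether the loss of Dicer in ECs lowers the miRNA in the artery. No difference between the genotypes was detected for either member. The delta CT, which is the CT of the miRNA less the mean of its aorta for U6 and snoRNA135, was 5.94, 5.83 and 5.75 for miR-221 in EC-Dicerflox and 5.70, 5.94 and 5.91 in EC-DicerWT mice. The delta CT of miR-222 was 1.47, 1.27 and 1.97 in EC-Dicerflox and 1.49, 1.30 and 1.82 in EC-DicerWT mice. The groups overlapped for both members, and the EC-DicerWT values of miR-222 all lay within the range of the EC-Dicerflox values.

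For miR-221, the log2 fold change in EC-Dicerflox over EC-DicerWT mice was 0.0095 with a standard error of 0.23 (unadjusted p = 0.968, adjusted p = 0.992, limma with Benjamini-Hochberg adjustment over 461 miRNAs). Its 95% interval ran from -0.57 to 0.59, that is from 0.675-fold to 1.5-fold. For miR-222 it was -0.035 with a standard error of 0.31 (unadjusted p = 0.914, adjusted p = 0.982, limma), with an interval from -0.82 to 0.75, or from 0.568-fold to 1.68-fold. Changes within these bounds were not excluded by this fit with 3 samples per group. Both bounds depended on the setting. The lower bound reached -0.957 for miR-221 with snoRNA135 alone and -1.3 for miR-222 with U6 alone. With U6 alone, the upper bound reached 1.09 for miR-221 and 1.4 for miR-222. An exact permutation test of the delta CT over the 20 arrangements of the samples gave a two-sided p of 1.0 for both members, in a design that cannot give less than 0.1.

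Among the 461 miRNAs tested, 6 had an estimate closer to 0 than miR-221 (1.3%) and 17 closer to 0 than miR-222 (3.69%). None of the 461 passed an adjusted p of 0.05 with limma (0.0% called), and 14 had an unadjusted p under 0.05 (3.04%), of which 9 were lower and 5 were higher in EC-Dicerflox mice. Neither member was among these 14. The groups did not overlap in delta CT for 48 of the 461 miRNAs (10.4%), and neither member was one of them. The control RNA moved all estimates together, and the median log2 fold change over the 350 was 0.103 with U6 and snoRNA135, 0.186 with U6 alone and -0.058 with snoRNA202 alone. Relative to this median, miR-221 was at -0.0937 and miR-222 at -0.138 under each of these and with the mean or median of the 350 as the reference. These values recur by arithmetic, because a single reference per aorta shifts all estimates equally. With the controls of the same card, they were -0.14 and -0.184.

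**Figure D2:**
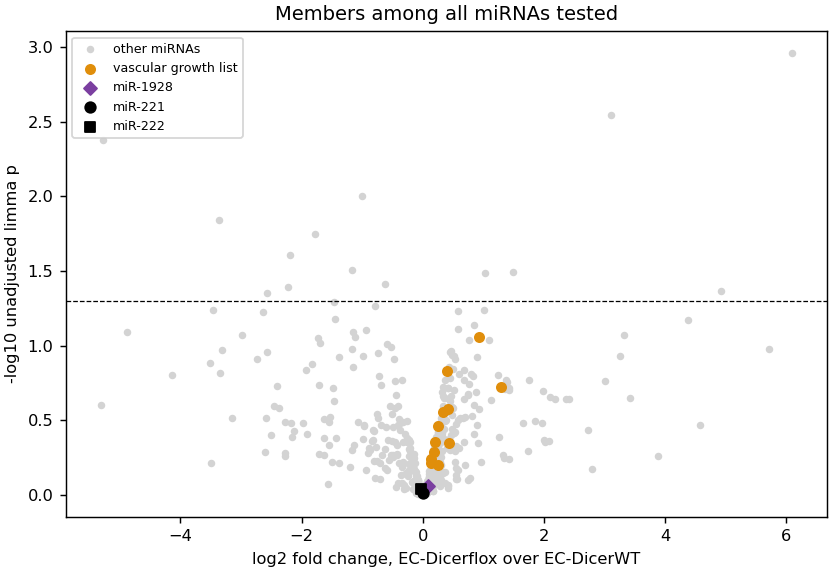
Minus log10 of the unadjusted p-value of the limma fit against the log2 fold change of EC-Dicerflox over EC-DicerWT for the 461 miRNAs tested, with a dashed line at the threshold of 0.05. MiR-221 (black circle), miR-222 (black square) and miR-1928 (purple diamond) lie at the bottom near 0, and the vascular growth list (orange) lies to the right of 0 and below the line.

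The replicate numbers are not said to mark a litter or a day, so that pairing mice by number is an assumption. In pairs of mice with the same replicate number, the log2 difference of miR-221 was -0.245, 0.115 and 0.158 for numbers 1, 2 and 3. That of miR-222 was 0.0167, 0.0282 and -0.15. Each member was higher in 2 of 3 pairs and lower in 1, and the pair in which it was lower was not the same for both.

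MiR-1928, which shares the seed, was a late signal, with CTs of 32.0, 31.9 and 32.8 in EC-Dicerflox and 32.4, 32.5 and 31.5 in EC-DicerWT mice. The groups overlapped in CT, and the log2 fold change, relative to the control RNAs, was 0.092 with a standard error of 0.56 (unadjusted p = 0.876, adjusted p = 0.982, limma). Its interval, from -1.33 to 1.52, was wider than that of either member.

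The direction of the estimates of both members depended on the control RNA. The log2 fold change of miR-221 ranged from -0.152 with snoRNA202 alone to 0.0928 with U6 alone, and that of miR-222 from -0.196 to 0.0485 with the same RNAs. Leaving out 1 aorta at a time gave -0.0362 to 0.0862 for miR-221 and -0.186 to 0.164 for miR-222. The interval included 0 in each of these fits.

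**Figure D3:**
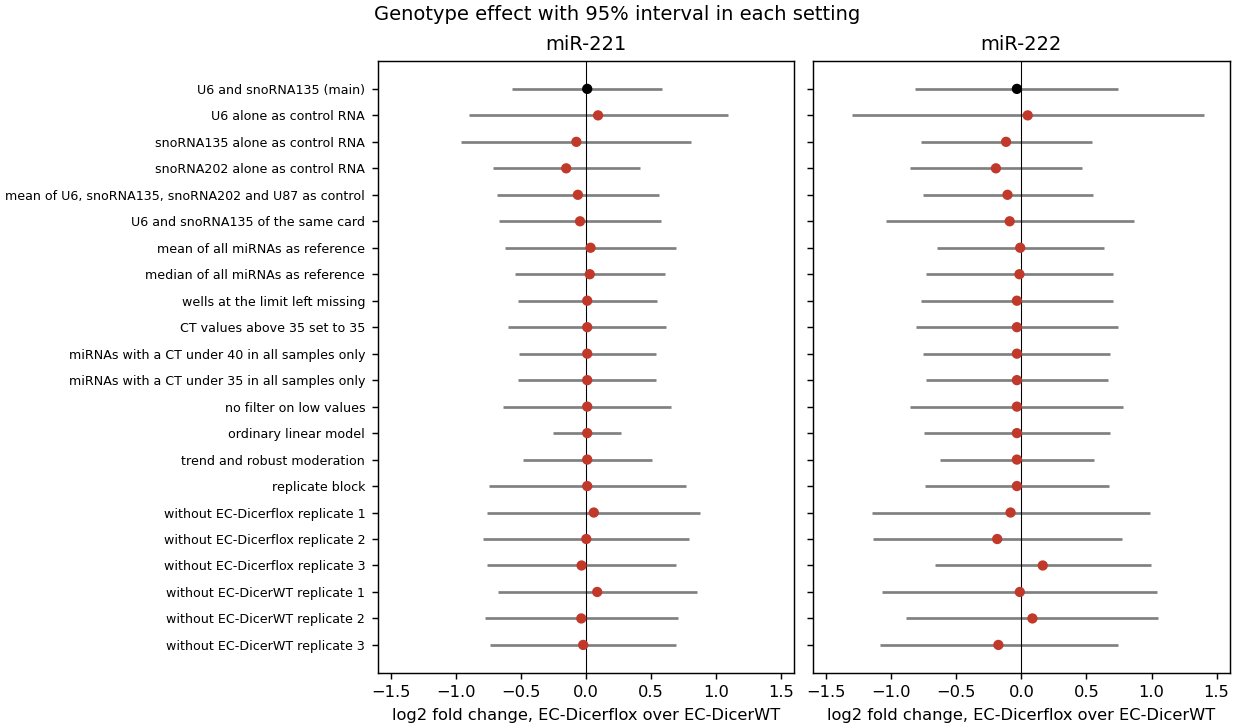
Log2 fold change of EC-Dicerflox over EC-DicerWT (points) with its 95% interval (lines) for miR-221 and miR-222 under the main setting (black) and each alternative (red). Every interval crosses 0, and the points of miR-221 stay between -0.152 and 0.0928.

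The mice varied little in miR-221 once the control RNAs were taken into account. Over the 6 aortas, the SD of the delta CT of miR-221 was 0.104 cycles, the smallest of the 350 miRNAs, whose median SD was 0.481 cycles. For miR-222 it was 0.283 cycles, and 70 of the 350 miRNAs had a smaller SD. This order rests on the control RNA. With snoRNA135 alone, the SD of miR-222 was 0.128 cycles with 1 miRNA below it, and that of miR-221 was 0.322 cycles with 77 below it. With U87 alone, the SDs were 0.199 cycles for miR-222 and 0.405 cycles for miR-221. With U6 alone they were 0.57 and 0.315 cycles, with snoRNA202 alone 0.235 and 0.15 cycles. With the mean of the 350 miRNAs as the reference, both members were among the steadier miRNAs, with 0.191 cycles for miR-221 (18 miRNAs below) and 0.174 cycles for miR-222 (12 below). With their median, the order turned, with 0.118 cycles for miR-221 (2 below) and 0.245 cycles for miR-222 (40 below). Thus miR-222 followed snoRNA135 and U87 more closely, and miR-221 followed U6 and snoRNA202 more closely than miR-222 did.

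As raw CTs, the members rose and fell together across the 6 aortas, with Pearson's r = 0.973 (exact permutation p = 0.0111, adjusted p = 0.0167 over 6 relations) and Spearman's rho = 0.714 (exact permutation p = 0.136, adjusted p = 0.163). The size of r rests on the late replicate 3 of each group, the samples farthest from the median of miR-221. Without them, r was 0.483 over the other 4 aortas (exact permutation p = 0.583) and rho was 0.0 (exact permutation p = 1.0), but this leaves a narrower range of CT and only 24 arrangements, so that the p says little about the relation. With the mean of each group removed, r over the 6 aortas was 0.973 and rho was 0.829 (exact permutation p = 0.00556 and p = 0.0583, adjusted p = 0.0111 and p = 0.117). These permutations treat the aortas as exchangeable, although replicate 3 was late in both groups.

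Each member also rose and fell with the median of the miRNAs of its aorta. A median averages out the noise of single assays, so that its r cannot be ranked against the r between the members. Against the median CT of the 350 miRNAs, r was 0.988 for miR-221 and 0.986 for miR-222 (exact permutation p = 0.00417 and p = 0.00556, adjusted p = 0.0111 for both), and rho was 0.943 and 0.829 (exact permutation p = 0.0167 and p = 0.0583, adjusted p = 0.1 and p = 0.117). Per cycle of that median, miR-221 shifted by 0.883 cycles and miR-222 by 1.30 cycles. After subtraction of U6 and snoRNA135, r between the members was -0.258 (exact permutation p = 0.575, adjusted p = 0.575) and rho was -0.371 (exact permutation p = 0.497, adjusted p = 0.497). Without the 2 aortas farthest from the median delta CT of miR-221, which were EC-Dicerflox replicate 3 and EC-DicerWT replicate 1, this r was 0.292 over 4 aortas (exact permutation p = 0.625), and with both late aortas (replicate 3) left out r was -0.327 (exact permutation p = 0.667). With the mean of the 350 miRNAs subtracted in place of the control RNAs, r was -0.593 (exact permutation p = 0.208, adjusted p = 0.25) and rho was -0.714 (exact permutation p = 0.136, adjusted p = 0.163). A joint deviation of the pair from the other miRNAs of the same aorta was therefore not detected. Both members share the reference that is subtracted, and 3 aortas per group are too few for a correlation within a genotype.

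**Figure D4:**
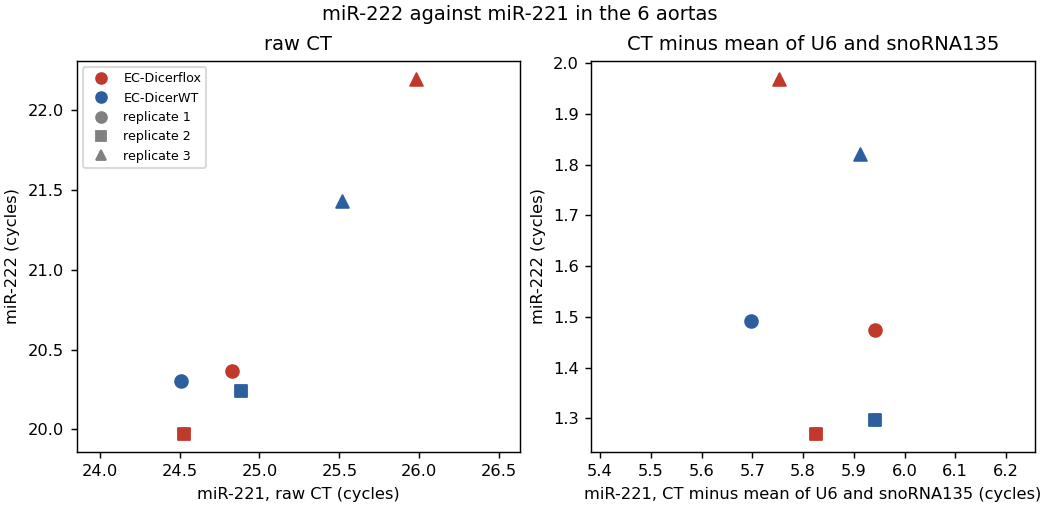
CT of miR-222 against CT of miR-221 (left, cycles) and the same after subtraction of the mean CT of U6 and snoRNA135 (right), 1 point per aorta, colour for genotype and shape for replicate number. On the left the points of replicate 3 lie apart at the upper right (r = 0.973 over 6 aortas); on the right no rising relation is seen (r = -0.258).

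The gap between the members needs no control RNA. The CT of miR-221 minus the CT of miR-222 was 4.47, 4.56 and 3.78 cycles in EC-Dicerflox and 4.21, 4.64 and 4.09 cycles in EC-DicerWT replicates 1, 2 and 3. The gap was narrowest in replicate 3 of both groups, and the groups overlapped. It was 4.27 ± 0.423 (SD, n = 3) in EC-Dicerflox and 4.31 ± 0.291 (SD, n = 3) in EC-DicerWT mice (exact permutation test, two-sided p = 0.9, adjusted p = 0.9 over 3 tests), and no difference between the members in their response to the genotype was detected. Without EC-Dicerflox replicate 3 the difference of the gap changed its direction, as it did without EC-DicerWT replicate 2.

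How steady the gap was can be read against other miRNA pairs of 1 primary transcript. Of the 17 pairs in the list, with miR-221 and miR-222, 16 had both members under a CT of 40 in all aortas. The SD of the gap over the 6 aortas was 0.326 cycles for miR-221 and miR-222, the seventh in ascending order (rank 7 of 16). It ranged from 0.175 cycles for miR-132 and miR-212 to 2.16 cycles for miR-322 and miR-503, and was 0.479 cycles for miR-143 and miR-145, of which miR-145 hardly varied in CT. Among all 349 other miRNAs detected in every aorta, miR-222 had the 97th smallest SD of the difference to miR-221 (rank 97), with a median of 0.49 cycles over the 349. Seen from miR-222, miR-221 had rank 75. Many miRNAs of other transcripts thus followed a member as closely as its own partner did.

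**Figure D5:**
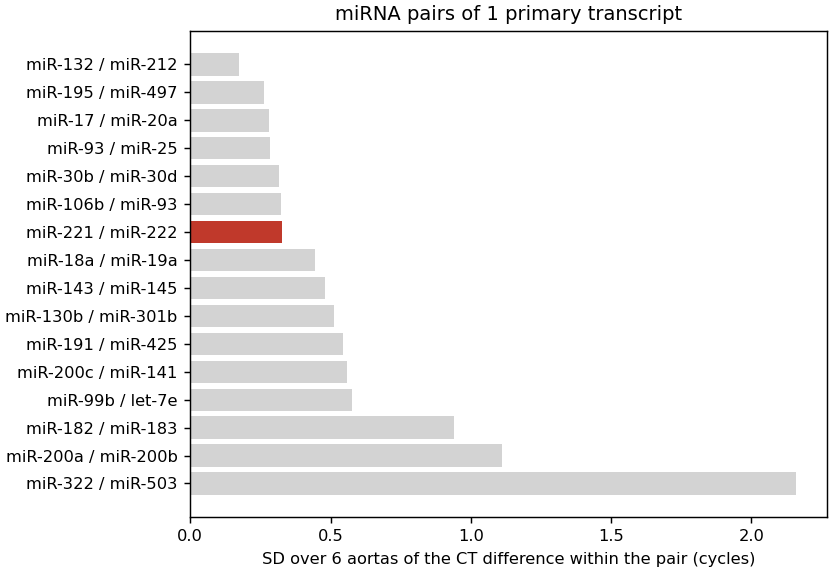
SD over the 6 aortas of the CT difference within each of 16 miRNA pairs of 1 primary transcript, in cycles. The pair of miR-221 and miR-222 (red) has an SD of 0.326 cycles and lies in the middle of the order, between 0.175 and 2.16 cycles.

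The 5 miRNAs whose CT stayed closest in step with the mean of both members were miR-376b* (SD of the difference over 6 aortas 0.0917 cycles), miR-152 (0.11), miR-24-2* (0.122), miR-652 (0.129) and miR-27a (0.136), against a median SD of 0.485 cycles over 348 miRNAs. Named after their values were seen, the closest to miR-221 alone was miR-340-3p (0.0736 cycles), and to miR-222 alone miR-872* (0.0933 cycles). MiR-345-5p (0.0964 cycles) and the smooth muscle miRNA miR-143 (0.107 cycles) came next for miR-221. The other smooth muscle miRNA, miR-145, hardly varied in CT, with an SD of 0.0979 cycles over the 6 aortas against 0.587 cycles for miR-221.

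Other miRNAs linked to the growth or differentiation of vascular smooth muscle did not pass an unadjusted p of 0.05 either, but 1 assay did under each of 4 alternatives, namely scaling to the mean miRNA, the ordinary linear model, trend and robust moderation, and the fit without EC-Dicerflox replicate 1. Of the vascular growth list (miR-1, miR-21, miR-24, miR-26a, miR-31, miR-133a, miR-143, miR-145, miR-146a, miR-195 and miR-322), 12 assays were tested, and 0 were lower and 0 were higher at an unadjusted limma p under 0.05, against 1.95% and 1.08% of all 461 miRNAs. Their median log2 fold change was 0.292, against 0.0818 over the 461. All 12 estimates were above 0, as were 251 of the 461, from 0.131 for miR-133a, a muscle miRNA, to 1.29 for 1 of the 2 assays of miR-322, while 2 were below 0 with snoRNA202 alone. MiR-21, which promotes smooth muscle growth, was at 0.25 with a standard error of 0.239, and miR-145, which keeps smooth muscle cells contractile, at 0.25 with a standard error of 0.485. The CT of miR-145 did not follow the late signals of replicate 3, with a range of 0.265 cycles over the 6 aortas, so that its estimate mainly carries the values of the control RNAs. Both members had smaller estimates than these 12, and this difference was not tested.

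Of the markers of other cell types, 1 passed an unadjusted p of 0.05. The 2 EC miRNAs (miR-126-3p and miR-126-5p) had higher estimates, 0.41 and 0.85, with unadjusted limma p-values of 0.193 and 0.0727. Their mean delta CT was 0.03 to 0.826 in EC-Dicerflox and 1.04 to 1.27 in EC-DicerWT mice, and did not overlap. The groups did not overlap for either EC miRNA (2 of 2) or for 3 of the 12 assays of the vascular growth list, against 10.4% of the 461 miRNAs. Of 5 leukocyte miRNAs, 1 was lower (miR-142-5p, -1.0, unadjusted p = 0.00989, adjusted p = 0.923, limma), against 1.95% of all 461 miRNAs, and 0 were higher. With U6 alone as the control RNA, 0 of the 5 were lower at this threshold. Their median was -0.382, with 3 of 5 estimates below 0, against 210 of the 461. Of 2 smooth muscle, 3 striated muscle and 2 erythroid miRNAs, 0 had an unadjusted p under 0.05, with medians of 0.194, 0.433 and -0.00717. At a CT of 40 in all samples was 1 striated muscle marker, and miR-206 and miR-144 have no assay in the table. The part of these cell types in the values of miR-221 and miR-222 was not tested.

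The comparison with slowly decaying miRNAs of the same aorta needs no control RNA. The paper's discussion sets miR-221, together with miR-27b, miR-103 and let-7 miRNAs, against a slow list of miR-26a, miR-23a, miR-21 and miR-126-3p. That order comes from ECs in which Dicer was silenced, and not from whole aorta. The CT of miR-221 minus the mean CT of these 4 was 3.40, 3.82 and 3.47 cycles in EC-Dicerflox and 3.32, 2.94 and 3.13 cycles in EC-DicerWT mice. All 3 EC-Dicerflox values lay above every EC-DicerWT value, that is miR-221 was lower relative to the slow list, by 0.436 cycles (two-sided exact permutation p = 0.1, which is the lowest that 3 against 3 can give, adjusted p = 0.3 over 3 tests). Most miRNAs were later against this list. The median of the same difference over the 346 other miRNAs detected in every aorta, members included, was 0.344 cycles, it was larger than that of miR-221 for 155 of them (44.8%), and 46 (13.3%) lay without overlap in this direction. The shift of miR-221 was thus near that of a typical miRNA, 0.0918 cycles above the median. For miR-222 the difference was -1.07, -0.739 and -0.313 cycles in EC-Dicerflox and -0.887, -1.70 and -0.967 cycles in EC-DicerWT mice. The groups overlapped, and the means differed by 0.48 cycles in the same direction (exact permutation test, two-sided p = 0.3, adjusted p = 0.45), with 143 of the 346 miRNAs (41.3%) above it. Without EC-DicerWT replicate 2 this difference was 0.221 cycles, and without EC-Dicerflox replicate 3 it was 0.283 cycles.

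The log2 fold changes of the slow miRNAs, relative to U6 and snoRNA135, were 0.41 for miR-126-3p, 0.25 for miR-21, 0.70 for miR-23a and 0.42 for miR-26a, and 0 of the 4 had an unadjusted limma p under 0.05. MiR-23a was a late signal with the widest spread of the 4, with a CT of 29.5 ± 1.32 (SD, n = 3) in EC-Dicerflox and 30.0 ± 1.17 (SD, n = 3) in EC-DicerWT mice. Without miR-23a, a choice made after its values were seen, miR-221 was at 6.197 ± 0.0464 (SD, n = 3) cycles in EC-Dicerflox and 5.85 ± 0.151 (SD, n = 3) cycles in EC-DicerWT mice (exact permutation test, two-sided p = 0.1). MiR-222 was then at 1.928 ± 0.395 (SD, n = 3) and 1.534 ± 0.433 (SD, n = 3) cycles (exact permutation test, two-sided p = 0.4). Against these 3 miRNAs, too, the shift of both members was near that of the others, with 0.349 cycles for miR-221, 0.394 cycles for miR-222 and a median of 0.257 cycles over the 346, and 51 of these (14.7%) were later without overlap.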

How the data were processed

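The authors deposited raw CT values of 6 arrays, 1 column per aorta, on a log2-like scale and without normalization. Their methods name a Megaplex reverse transcription and pre-amplification step before the TaqMan cards, and the threshold and baseline settings are not given in the sources used here. All columns matched samples by label, and no other value columns were present. Members were read by assay name. Groups were compared with limma 3.58.1 (lmFit, eBayes) in R 4.3.3 on minus delta CT (U6 and snoRNA135, 4 wells), for 461 miRNAs below a CT of 40 in 1 or more samples, with wells at 40 kept. Single values were compared by exact permutation in Python 3.11.15. The fit was tested on simulated data with independent noise and changes larger than the estimates of the members. Late samples, control RNAs and wells at 40 were not simulated, so that this test does not cover them. The 2 cards were told apart by the style of the assay numbers. The labels call the 3 samples of each group biological replicates, the paper gives them as separate mice, and the number of arrays, 3 per group, limits the precision. The deviations of same-numbered samples correlated at 0.15, 0.224 and 0.431 over 350 miRNAs, each over 0.1. EC-Dicerflox replicate 1 with EC-DicerWT replicate 2 (0.285) and EC-Dicerflox replicate 2 with EC-DicerWT replicate 1 (0.117) also passed 0.1. This threshold therefore does not show a pairing by number. Replicate 3 of each group correlated negatively with replicates 1 and 2 of the other group (-0.353 to -0.185). The members, lists (vascular growth, cell type markers, slow turnover, pairs of 1 transcript), the rule for named miRNAs (members, seed mates, the 5 closest in SD, and the lists) and alternatives were chosen with earlier results of these data known. Sequences come from RefSeq (GRCm38.p6).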

Additional observations from a re-analysis of the deposited data

How the results depend on the processing

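Neither member reached an adjusted p of 0.05 in any of 15 alternatives or 6 fits that left out 1 aorta, and the lowest adjusted p was 0.963 for miR-221 and 0.88 for miR-222. The estimate of miR-221 fell below 0 with snoRNA135 alone (-0.0738), snoRNA202 alone (-0.152), the mean of 4 control RNAs (-0.0623) and controls of the same card (-0.0458). That of miR-222 rose above 0 with U6 alone (0.0485). These turns follow from the control RNA, which moves both members by the same amount, and why the control RNAs differed was not tested. With 1 aorta left out (the direction turned without EC-Dicerflox replicate 3 or EC-DicerWT replicate 2 for both members, and without EC-DicerWT replicate 3 for miR-221) they ranged from -0.0362 to 0.0862 and from -0.186 to 0.164. The difference of the gap (CT of miR-222 minus miR-221) between the groups was 0.0443 cycles and ranged from -0.198 (without EC-Dicerflox replicate 3) to 0.188 with 1 aorta left out, being -0.121 without EC-DicerWT replicate 2. In a paired fit blocked on replicate number, the estimates were 0.0095 for miR-221 (adjusted p = 0.994) and -0.0348 for miR-222 (adjusted p = 0.958), and the pairing changed no other call of the members. The r of the members fell from 0.973 to -0.258 (delta CT), -0.593 (mean of all miRNAs) 0.483 (without the 2 samples farthest from the median) and, in delta CT without the 2 samples farthest in delta CT or in CT, choices made after seeing the data, 0.292 and -0.327.

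Of all miRNAs, the 9 lower calls became 14 with snoRNA202 alone and 6 with U6 alone, and the 5 higher calls became 3 with U6 alone, 14 with the ordinary linear model and 8 with trend and robust moderation. With 1 aorta left out, 7 to 12 were lower, 4 to 10 were higher and 0 to 2 passed an adjusted p of 0.05 (2 without EC-Dicerflox replicate 1, 1 without EC-Dicerflox replicate 3). The vascular growth list had 1 call with the mean of all miRNAs, the ordinary model and trend moderation, the EC markers 1 with the mean or median of all miRNAs and trend moderation, and the leukocyte markers 0 with U6 alone. With 1 aorta left out, the vascular growth list had 0 to 1 calls (1 without EC-Dicerflox replicate 1) and the EC markers 0 to 1 (1 without EC-Dicerflox replicate 3). The shift of miR-221 against the slow list was 0.308 to 0.531 cycles with 1 aorta left out and 0.337 with the median of the list, and that of miR-222 was 0.221 to 0.66 and 0.381.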
